A study of Mus musculus with 24 samples.

Results

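The 10 apolipoprotein genes described here are Apoa1, Apoa2, Apoa4, Apoa5, Apob, Apoc1, Apoc2, Apoc3, Apoe and Apoh. They were taken by gene symbol from the 15582 genes of the table used here, and all 10 were found and passed the filter on low values. Total RNA was sequenced from frozen liver of mixed lobes of male B6C3F1 mice, a hybrid strain, aged 4 weeks per the labels. Dichloroacetic acid (DCA), which forms when drinking water is chlorinated, was given to the mice in their water at 0 (control), 1, 2 or 3.5 g/L over 6 days. There were 6 libraries per dose and 24 in all, and no other treatment is named in the labels. Whether each library stands for a separate mouse is not spelled out in the labels, and the p-values therefore reflect only how these libraries scatter.

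Apolipoproteins are the proteins that hold lipoprotein particles together, direct them to receptors and switch the enzymes that act on their lipids on or off. Most of those in plasma are made by hepatocytes. Apob is the scaffold of very low density lipoprotein (VLDL), Apoa1 and Apoa2 are the main proteins of high density lipoprotein (HDL), and the small C apolipoproteins and Apoe move between particles. Several of these genes sit in clusters, and the order of genes within a cluster is shared between mouse and human.

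Values are RPKM, reads divided by the length of a gene and by the number of mapped reads, as the authors deposited them. Since RPKM is scaled to length, levels of different genes can be set side by side. A log2 fold is a difference of mean log2(RPKM + 1) between doses, with its standard error (SE). Tests used limma over the 6540 genes that reached 0.5 RPKM in 6 or more of the libraries, with Benjamini-Hochberg adjustment over all of them. A gene was called higher or lower at an adjusted p under 0.05.

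Depth was similar between libraries, at about 23600000 to 28100000 reads by an approximate estimate from the steps between low RPKM values, and pairs of libraries within a dose correlated across genes at r = 0.9788 to 0.9949 (60 pairs). Library titles hold a tag (L1, L2 or L3) that no label explains. It was L1 in all 6 controls, L1 in 3 and L2 in the other 3 libraries at 1 g/L, L2 in every library at 2 g/L and L3 in every library at 3.5 g/L, so the tag and the dose cannot be told apart at 3.5 g/L. Of all called genes, 73.4%, 80.6% and 75.0% were higher than control at 1, 2 and 3.5 g/L. Under median-ratio scaling, which divides each library by its median ratio to a common reference, those shares were 38.6%, 47.3% and 46.8%. Over all tested genes, that scaling moved the median log2 fold from 0.118 to -0.012 at 2 g/L and from 0.097 to -0.018 at 3.5 g/L.

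The 2 genes with the steepest slopes over dose were Apoc2, higher, and Apoa4, lower, and each lies in a cluster with other members. The starts of these 2 genes and of their neighbours are shown here for that reason. Gene positions are from GENCODE M21 on GRCm38, the assembly that mm10 denotes. On chromosome 9, Apoa1 (46228580 to 46230466), Apoc3 (46232933 to 46235636, minus strand), Apoa4 (46240696 to 46243459) and Apoa5 (46268633 to 46271919) follow each other. On chromosome 7, all on the minus strand, lie Apoc2 (19671579 to 19677941), Apoc1 (19689481 to 19692660) and Apoe (19696109 to 19699188). The sequences below run from 250 bases before to 50 bases after the RefSeq start on GRCm38.p6, 5′ to 3′ on the gene's own strand, and capitals mark motif matches.
Apoc2 (chr7:19677892-19678191, minus strand): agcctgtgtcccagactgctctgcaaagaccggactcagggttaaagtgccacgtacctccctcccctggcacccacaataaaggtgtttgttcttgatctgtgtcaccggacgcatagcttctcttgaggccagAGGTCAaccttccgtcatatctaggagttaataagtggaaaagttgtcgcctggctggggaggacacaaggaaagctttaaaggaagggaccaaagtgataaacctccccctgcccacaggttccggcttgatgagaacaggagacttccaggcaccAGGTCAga
Apoe (chr7:19699139-19699438, minus strand): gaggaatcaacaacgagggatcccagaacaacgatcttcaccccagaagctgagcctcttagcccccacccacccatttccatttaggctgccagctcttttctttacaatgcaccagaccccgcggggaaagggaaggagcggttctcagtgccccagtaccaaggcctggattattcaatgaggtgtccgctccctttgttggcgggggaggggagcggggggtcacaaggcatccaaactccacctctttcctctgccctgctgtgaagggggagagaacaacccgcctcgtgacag
Apoa1 (chr9:46228380-46228679, plus strand): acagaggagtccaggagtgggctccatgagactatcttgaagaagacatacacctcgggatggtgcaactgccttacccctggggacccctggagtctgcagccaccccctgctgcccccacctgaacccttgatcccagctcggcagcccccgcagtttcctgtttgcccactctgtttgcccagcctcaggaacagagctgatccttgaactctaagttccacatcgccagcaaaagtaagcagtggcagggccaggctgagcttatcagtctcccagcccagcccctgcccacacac
Apoa4 (chr9:46240594-46240893, plus strand): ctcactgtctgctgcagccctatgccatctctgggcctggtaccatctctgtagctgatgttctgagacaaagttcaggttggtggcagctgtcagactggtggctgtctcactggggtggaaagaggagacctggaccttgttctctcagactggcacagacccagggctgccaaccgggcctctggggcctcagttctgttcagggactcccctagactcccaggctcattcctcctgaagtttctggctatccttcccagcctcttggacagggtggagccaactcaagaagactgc
Apoa5 (chr9:46268383-46268682, plus strand): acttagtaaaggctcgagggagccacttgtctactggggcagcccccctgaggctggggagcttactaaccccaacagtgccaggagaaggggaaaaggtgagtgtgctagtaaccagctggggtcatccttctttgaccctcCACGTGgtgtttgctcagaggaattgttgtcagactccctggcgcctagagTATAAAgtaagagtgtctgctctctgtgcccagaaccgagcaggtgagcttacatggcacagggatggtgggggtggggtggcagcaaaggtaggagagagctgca

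The motifs searched, on both strands, were TATAAA (the core of a TATA box), CCAAT (named after its letters), AGGTCA (a half-site of nuclear receptors), CAAAGTCCA (a core bound by HNF4 factors) and CACGTG (an E-box). Windows of this length in RefSeq's 32851 promoters held them in 13.6%, 37.4%, 16.3%, 0.475% and 7.15% of cases. Counting the start as base 1, the Apoc2 window held AGGTCA at bases -115 to -110 and again at 43 to 48. The Apoa5 window held CACGTG at -107 to -102 and TATAAA at -56 to -51. None of the 5 motifs matched in the windows of Apoa1, Apoa4 and Apoe. For Apoa1 and Apoa4, the RefSeq start lies downstream of the GENCODE start (46228580 and 46240696). Part of the bases shown before their RefSeq starts thus lies inside the gene as GENCODE places it. The absent matches in these windows therefore cover less of the region upstream of the GENCODE starts. All matches given are of letters, and no binding was measured. Entries were matched for 8 of the 10 genes, and none for Apoc1 and Apoc3.

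In control liver the members covered a wide span of levels. Apoe was highest at 3831 RPKM ± 186.9 (SD, n = 6), followed by Apoa1 at 3466 ± 156.9 and Apoa2 at 3137 ± 281.7. The ranges of Apoe and Apoa1, and those of Apoa1 and Apoa2, overlapped between libraries. Apoc1 came next at 1696 RPKM ± 137.6, then Apob at 898.6 ± 96.1 and Apoh at 822.0 ± 43.1, whose ranges overlapped. Below them stood Apoc3 at 499.8 RPKM ± 44.8, Apoa5 at 161.3 ± 17.2, Apoc2 at 106.9 ± 16.8 and Apoa4 at 35.2 ± 7.29, each apart from its neighbours in this order. The lowest member, Apoa4, still rested on about 508 to 2095 reads per library over the 24 libraries by the approximate depth.

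**Figure D1:**
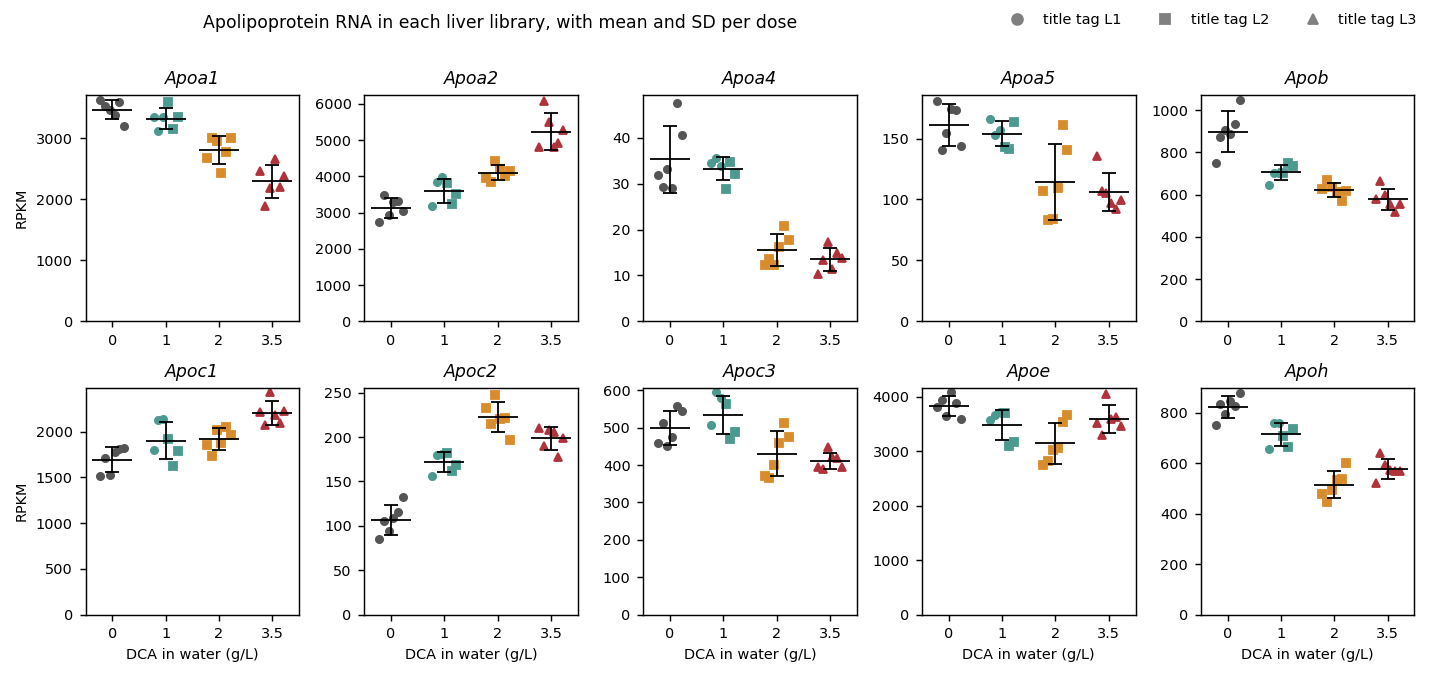
RPKM (vertical axes, starting at 0) of the 10 apolipoprotein genes in each of 24 liver libraries, by DCA dose in g/L (horizontal axes). Points are libraries, their shape gives the title tag, and black bars give the mean and SD of 6 libraries. Apoa4 dropped between 1 and 2 g/L, Apoa2 was highest at 3.5 g/L, and Apoc2 was above every control library at each dose of DCA.

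Most of these genes were called against control at 2 and 3.5 g/L and few at 1 g/L, and the direction differed between members. At 1 g/L, Apoc2 was higher and Apob lower, 1 member in each direction, where 8.35% of all tested genes were called higher and 3.03% lower. At 2 g/L, 2 members were higher (Apoa2, Apoc2) and 7 lower (Apoa1, Apoa4, Apoa5, Apob, Apoc3, Apoe, Apoh), against 41.9% higher and 10% lower of all tested genes. At 3.5 g/L, 3 members were higher (Apoa2, Apoc1, Apoc2) and 6 lower (Apoa1, Apoa4, Apoa5, Apob, Apoc3, Apoh), against 38.6% and 12.9%. The median log2 fold of the 10 members was -0.06, -0.30 and -0.39 at the 3 doses, and that of all tested genes was 0.05, 0.12 and 0.10. Most members were thus on the side that fewer of the tested genes took, at the deposited scaling. Under median-ratio scaling 2 members were higher and 7 lower at 2 g/L, where 1306 of all tested genes were higher and 1453 lower, and 3 were higher and 7 lower at 3.5 g/L, where 1435 were higher and 1631 lower.

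A linear slope over dose was called higher for 3 members (Apoa2, Apoc1, Apoc2) and lower for 6, where 38.0% of all genes had a higher slope and 12.6% a lower one. Under median-ratio scaling the slope of Apoc1 was not called (0.05, limma adjusted p = 0.0706) and that of Apoe was called lower (-0.08, adjusted p = 0.0406). Between neighbouring doses, 1 member was higher and 5 were lower at 2 g/L than at 1 g/L, against 22.7% and 5.63% of all genes. From 2 to 3.5 g/L, 1 member was higher and 1 lower, against 4.79% and 5.54%. The members with a called step between the upper doses were Apoa1, lower, and Apoa2, higher. With the title tag as a term in the model, 1 member was higher (Apoc2) and 3 were lower (Apoa4, Apob and Apoh) at 2 g/L, where 624 of all 6540 genes were higher and 240 lower. That fit left out the libraries at 3.5 g/L, and only those at 1 g/L, which hold both tags, separated tag from dose. The median SE of all tested genes at 2 g/L was 0.123 in it and 0.07 in the main fit. A call lost in it can thus reflect a wider SE and not a smaller fold.

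**Figure D2:**
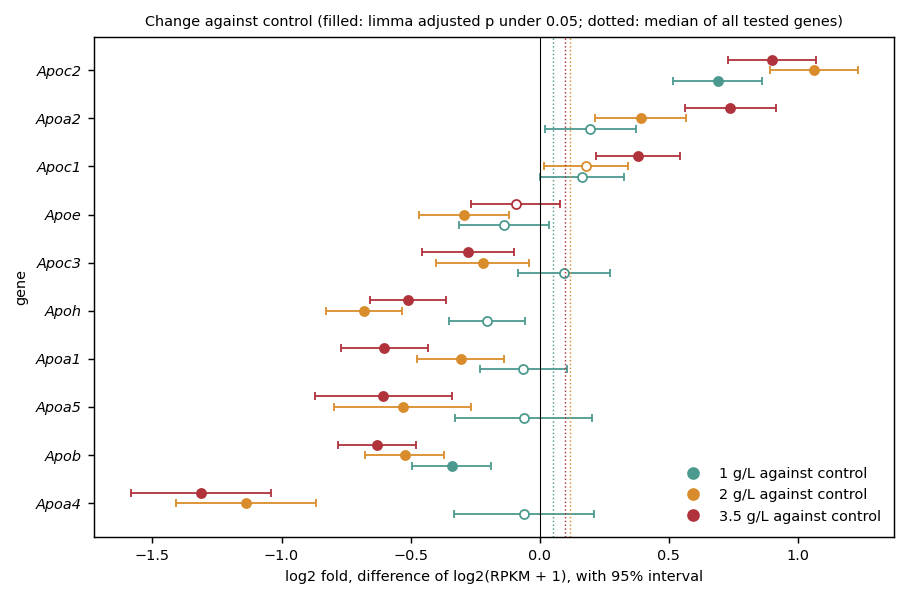
Log2 folds against control (horizontal axis, differences of log2(RPKM + 1)) of the 10 genes (vertical axis) with 95% intervals, for 3 doses in 3 colours with 6 libraries per dose. Filled points had a limma adjusted p under 0.05, and dotted lines mark the median of all tested genes at each dose. Apoc2, Apoa2 and Apoc1 lie right of those lines at every dose, and Apoa4 at 2 and 3.5 g/L lies farthest left.

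Genes that mark hepatocytes moved with these results. Of 8 such genes, 1 was lower at 1 g/L (F2), 4 at 2 g/L (Ahsg, Alb, Cps1, F2) and 6 at 3.5 g/L (those 4, Fga and Fgb), where Hnf4a was higher. Their summed level ran from 25400 to 32600 RPKM in controls, 23400 to 28600 at 1 g/L, 18800 to 30700 at 2 g/L and 19400 to 25600 at 3.5 g/L, and none of the 8 was at 0. Over the 3 doses, 3.03%, 10% and 12.9% of all tested genes were called lower and 8.35%, 41.9% and 38.6% higher. Median-ratio scaling called 2, 4 and 7 hepatocyte genes lower over these doses, where 366, 1453 and 1631 of all 6540 genes were lower. Quantile normalization called 3 and 5 lower at the upper doses, where 1311 and 1445 of all 6540 genes were lower. Alb was called at neither, with a log2 fold of 0 at both, against -0.53 and -0.43 as deposited. This method gives each rank the same value in every library. A gene of unchanged rank thus cannot be called, and the absent call says nothing of Alb. With the title tag as a term, 2 hepatocyte genes stayed lower at 2 g/L, where 240 of all 6540 genes were lower. Ahsg (-0.56, limma adjusted p = 0.0869) and Alb (-0.67, adjusted p = 0.0697) were not called, with folds no smaller than as deposited (-0.55 and -0.53). The part of hepatocyte genes in the apolipoprotein results was not tested. In bulk tissue, fewer cells of a type and less RNA per cell cannot be told apart. For other cells, 5 of 5 tested erythroid genes were lower at 2 g/L and 3 at 3.5 g/L, against 0 at 2 g/L with the title tag in the model and 5 at 3.5 g/L under median-ratio scaling. Cela1, the 1 acinar gene tested, was lower at both doses. Of 6 stellate and fibroblast genes, Lrat was higher at 2 and 3.5 g/L, whereas none was called at 2 g/L with the title tag in the model, and under median-ratio scaling 0 were higher and 2 and 3 were lower at these doses. Of 5 endothelial genes, Kdr was higher at 1 g/L (0 with the title tag in the model) and none was called at the upper doses, whereas under median-ratio scaling 3 were lower at 2 and at 3.5 g/L. The 1 bile duct gene tested passed at no dose.

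The main HDL proteins moved in opposite directions. Apoa1, which activates the enzyme that esterifies cholesterol in HDL and accepts cholesterol from cells, ran from 3202 through a median of 3498 to 3621 RPKM in controls. It ran from 3116 through 3342 to 3598 at 1 g/L, from 2432 through 2865 to 3010 at 2 g/L and from 1887 through 2286 to 2661 at 3.5 g/L. All libraries at 2 and 3.5 g/L were below all controls. The log2 fold of Apoa1 was -0.06 (SE 0.08, adjusted p = 0.642) at 1 g/L, -0.31 (SE 0.08, adjusted p = 0.00314) at 2 g/L and -0.60 (SE 0.08, adjusted p = 1.67e-06) at 3.5 g/L. The step from 2 to 3.5 g/L was itself called, at -0.30 (limma adjusted p = 0.0226), and it was not called without library 75 (2 g/L, adjusted p = 0.0513) or library 98 (3.5 g/L, adjusted p = 0.0594), under quantile normalization, with no filter or with only these groups in the fit. With the title tag in the model the log2 fold of Apoa1 at 2 g/L was -0.35 with a wider SE of 0.14, and it missed the threshold (limma adjusted p = 0.105). The fall also missed it with no filter on low values (adjusted p = 0.0764), and under median-ratio scaling it was larger (-0.495, adjusted p = 4.07e-05).

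Apoa2, the second protein of HDL by abundance, ran from 2741 through a median of 3164 to 3494 RPKM in controls and from 3177 through 3666 to 3986 at 1 g/L. It ran from 3860 through 4086 to 4429 at 2 g/L and from 4806 through 5101 to 6084 at 3.5 g/L. Every library at 2 g/L was above every control, and every library at 3.5 g/L was above every library at 2 g/L. The log2 folds of Apoa2 were 0.20 (SE 0.09, adjusted p = 0.13), 0.39 (SE 0.09, adjusted p = 0.000576) and 0.74 (SE 0.09, adjusted p = 1.66e-07), and limma called the step from 2 to 3.5 g/L (0.35, adjusted p = 0.0113). That step was not called under quantile normalization (0.14, adjusted p = 0.417), with no filter (adjusted p = 0.217) or with only these groups in the fit (adjusted p = 0.06). Apoa2 lies on chromosome 1 (171225054 to 171226379), outside both clusters. With the title tag as a term the log2 fold of Apoa2 at 2 g/L was 0.45 (SE 0.16, limma adjusted p = 0.0668). With no filter its adjusted p was 0.0559, and under median-ratio scaling its fold was 0.20 (adjusted p = 0.0473). Quantile normalization called Apoa2 higher at 1 g/L too (0.46, limma adjusted p = 0.00669). For abundant genes such as this one, quantile values follow the rank within a library and not the distance to the next gene.

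The order of the most abundant members changed with dose. Apoa2 was above Apoa1 in 0 of 6 control libraries, in 5 of 6 at 1 g/L and in 6 of 6 at 2 and 3.5 g/L. Within a library, Apoa2 divided by Apoa1 in RPKM was 0.757 to 0.989 in controls, 0.951 to 1.23 at 1 g/L, 1.28 to 1.73 at 2 g/L and 1.81 to 3.22 at 3.5 g/L. From 1 g/L upward each group lay above the one before in its median, and the groups at 2 and 3.5 g/L overlapped with none of the others. Apoa2 was also above Apoe in 0, 5, 6 and 6 of 6 libraries, so that the gene with the third level in controls had the first level at every dose of DCA. At 3.5 g/L, Apoa1 and Apoc1 had overlapping ranges, and Apoc1 was above Apoa1 in 2 of 6 libraries. These crossings were noted after the values were seen and are given without a test. The dose at which they fall depends on the gene lengths behind RPKM.

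At the deposited scaling, the summed RPKM of the 10 genes stayed within a narrow span while its make-up shifted. Median-ratio scaling divides by 0.876 to 0.948 in controls, 1.024 to 1.122 at 2 g/L and 1.003 to 1.076 at 3.5 g/L. Under it the sums at the upper doses are lower relative to controls, while the shares of the genes stay the same. The sum was 14650 ± 593 in controls and 14610 ± 897, 13890 ± 721 and 15210 ± 521 at 1, 2 and 3.5 g/L (SD, n = 6 each). Apoa2 made up 21.4% ± 1.14 of it in controls and 34.4% ± 2.79 at 3.5 g/L. The share of Apoa1 was 23.7% ± 1.43 in controls and 15.1% ± 1.96 at 3.5 g/L, and the ranges of these 2 genes' shares did not overlap between the 2 doses.

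**Figure D3:**
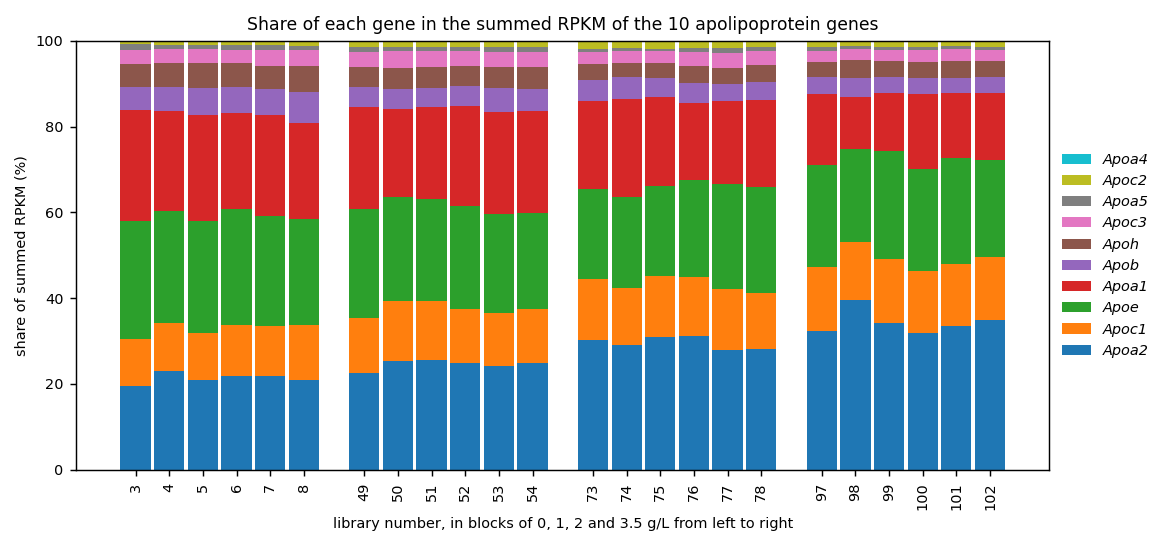
Share of each gene in the summed RPKM of the 10 apolipoprotein genes (vertical axis, percent), with 1 bar per library in blocks of 0, 1, 2 and 3.5 g/L (horizontal axis, library number). The lowest segment, Apoa2, grows from a mean of 21.4% in controls to 34.4% at 3.5 g/L, and the Apoa1 segment shrinks from 23.7% to 15.1%.

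Apob, the one large protein that stays with each VLDL particle from assembly to clearance, was lower at every dose as deposited. It lies on chromosome 12 (7977648 to 8016835). Its controls ran from 749.0 through a median of 895.3 to 1046 RPKM, and the libraries at 1 g/L from 644.5 through 704.3 to 749.2. It ran from 569.5 through 622.4 to 671.4 RPKM at 2 g/L, and at 3.5 g/L from 520.2 through 567.6 to 665.4. The highest library at 1 g/L just reached the lowest control, and no library at 2 or 3.5 g/L did. The log2 folds of Apob were -0.34 (SE 0.07, adjusted p = 0.00485), -0.52 (SE 0.07, adjusted p = 4.16e-06) and -0.63 (SE 0.07, adjusted p = 1.81e-07). Among the L1 libraries alone, 3 at 1 g/L against 6 controls, the log2 fold was -0.39 with an adjusted p of 0.133 by limma. Quantile normalization also ended the call for Apob at 1 g/L (-0.27, adjusted p = 0.0704).

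Apoe, the ligand by which remnant particles bind receptors in the liver, was called lower than control at 2 g/L as deposited and at further doses under other scalings. Its mean was 3831 RPKM in controls and 3484 ± 275.6, 3143 ± 376.7 and 3594 ± 254.6 at 1, 2 and 3.5 g/L (SD, n = 6 each). All 3 doses overlapped with controls. The call at 2 g/L (log2 fold -0.29, SE 0.08, limma adjusted p = 0.00559) was lost with the title tag in the model (-0.15, adjusted p = 0.554) and with no filter (adjusted p = 0.134), and median-ratio scaling gave -0.48 (adjusted p = 0.000104). At 1 g/L the log2 fold of Apoe was -0.14 (limma adjusted p = 0.28), and quantile normalization called it lower (-0.24, adjusted p = 0.0226). At 3.5 g/L its log2 fold was -0.09 (SE 0.08, adjusted p = 0.363), whereas median-ratio scaling gave -0.27 (adjusted p = 0.0136) and quantile normalization -0.19 (adjusted p = 0.0252).

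Apoe is also made by macrophages, and markers of Kupffer cells, the macrophages of the liver, moved at 3.5 g/L. Of 8 such genes, 7 were lower at 3.5 g/L, where 12.9% of all tested genes were lower. None of the 8 was called at 1 or 2 g/L as deposited. Median-ratio and quantile scaling each called 1 of them lower at 2 g/L, where they called 1453 and 1311 of all 6540 genes lower. Their summed level ran from 78.8 to 117.0 RPKM in controls, 71.0 to 94.3 at 1 g/L, 54.7 to 117.0 at 2 g/L and 50.4 to 70.2 at 3.5 g/L, with none at 0. Their part in the level of Apoe was not tested.

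Apoc2 had the largest rise of the 10 genes at each dose. It encodes the activator that lipoprotein lipase needs to release fatty acids from triglyceride. Its controls ran from 84.9 through a median of 107.2 to 132.8 RPKM, and the libraries at 1 g/L from 156.0 through 174.5 to 181.6. The libraries at 2 g/L ran from 196.9 through 221.3 to 247.3 RPKM, and at 3.5 g/L from 177.9 through 202.6 to 210.1. Each dose was apart from controls, and 2 g/L was apart from 1 g/L. The log2 folds were 0.69 (SE 0.08, adjusted p = 1.95e-05), 1.06 (SE 0.08, adjusted p = 1.61e-09) and 0.90 (SE 0.08, adjusted p = 5.86e-09), a ratio of mean RPKM of 1.6, 2.08 and 1.86.

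The rise of Apoc2 was present within title tags. Among L1 libraries its log2 fold at 1 g/L against control was 0.695 (limma adjusted p = 0.0399), and among L2 libraries its log2 fold at 2 g/L against 1 g/L was 0.38 (adjusted p = 0.031). From 2 to 3.5 g/L its log2 fold was -0.16 (limma adjusted p = 0.219), with a 95% interval of -0.33 to 0.01. In GENCODE M21, exons of Apoc2 overlap those of Gm44805, a model that joins Apoc4 to Apoc2. Gm44805 was not in the table, and Apoc4 passed the test at no dose (log2 folds 0.07, 0.03 and 0.16). Apoc2 was below Apoa5 in all 6 controls and above it in 5, 6 and 6 of 6 libraries at 1, 2 and 3.5 g/L.

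Apoc1, a small protein that inhibits particle uptake, was called higher at 3.5 g/L, and its call at 2 g/L depended on the processing. Its mean was 1696 RPKM in controls and 1902 ± 202.1, 1918 ± 118.7 and 2206 ± 128.4 at 1, 2 and 3.5 g/L (SD, n = 6 each). The libraries at 3.5 g/L, from 2077 to 2435 RPKM, were all above the controls, from 1520 to 1827. The log2 fold was 0.38 at 3.5 g/L (SE 0.08, limma adjusted p = 0.0003) and 0.18 at 2 g/L (SE 0.08, adjusted p = 0.0598). The step between these doses was not called (0.20, limma adjusted p = 0.106), and median-ratio scaling gave 0.21 at 3.5 g/L (adjusted p = 0.0211). Apoc1 passed at 2 g/L with a filter at 1 RPKM (adjusted p = 0.0471), without the variance trend (0.0274), without control library 8 (0.0433) and without library 74 (0.0375). Its sign at 2 g/L depended on the scaling, with -0.01 under median-ratio scaling (adjusted p = 0.94) and -0.07 under quantile normalization (adjusted p = 0.618). At 1 g/L it was 0.16 (limma adjusted p = 0.177) and turned to -0.09 under quantile normalization (adjusted p = 0.602).

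Apoc3 and Apoa5 act on the same step as Apoc2, Apoc3 as an inhibitor of lipoprotein lipase and Apoa5 as a factor that promotes its action. Apoc3 had means of 499.8, 534.1, 430.6 and 410.9 RPKM over the 4 doses, with SDs of 44.8, 52.1, 60.4 and 22.6. Libraries at 2 g/L overlapped with controls, and those at 3.5 g/L, from 389.3 to 448.0 RPKM, lay just below the lowest control of 450.7. The log2 fold of Apoc3 was -0.28 at 3.5 g/L (SE 0.09, limma adjusted p = 0.00949). The fold at 2 g/L was -0.22 (SE 0.09, limma adjusted p = 0.0356), and this call was lost on leaving out any 1 of 6 libraries (controls 4, 7 and 8 and libraries 73, 74 and 75 at 2 g/L), with an adjusted p of 0.0602 to 0.0953. With the title tag in the model it was -0.08 (adjusted p = 0.802). Under median-ratio scaling Apoc3 had -0.41 at 2 g/L (limma adjusted p = 0.000451) and -0.45 at 3.5 g/L (adjusted p = 0.000116).

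Apoa5 had means of 161.3 RPKM ± 17.2 in controls and 153.9 ± 10.2, 114.2 ± 31.3 and 106.0 ± 15.6 at 1, 2 and 3.5 g/L (SD, n = 6 each). The libraries at 2 g/L ran from 82.8 through a median of 108.1 to 161.3 RPKM and overlapped with the controls, from 140.9 to 180.9, while those at 3.5 g/L, from 91.9 to 135.8, did not. The log2 folds of Apoa5 were -0.53 at 2 g/L (SE 0.13, limma adjusted p = 0.00144) and -0.61 at 3.5 g/L (SE 0.13, adjusted p = 0.000378). The call at 2 g/L was lost with the title tag in the model (-0.44, adjusted p = 0.224).

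Apoa4 had the largest fall of the 10 genes at 2 and 3.5 g/L. It encodes a protein of chylomicrons and HDL that is made mostly by the intestine and, in rodents, also by the liver. Its controls ran from 29.0 through a median of 32.5 to 47.4 RPKM, and the libraries at 1 g/L from 28.8 through 34.2 to 35.6. At 2 g/L it ran from 12.2 through 14.9 to 20.9 RPKM, and at 3.5 g/L from 10.4 through 13.6 to 17.2. Both upper doses were below every library of the lower doses. The log2 fold of Apoa4 was -0.06 at 1 g/L (SE 0.13, adjusted p = 0.786), -1.14 at 2 g/L (SE 0.13, adjusted p = 3.26e-07) and -1.31 at 3.5 g/L (SE 0.13, adjusted p = 1.97e-08).

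The drop of Apoa4 lay between 1 and 2 g/L, where the log2 fold was -1.08 (SE 0.13, limma adjusted p = 2.97e-06) and, among L2 libraries alone, -1.02 (adjusted p = 0.00892). From 2 to 3.5 g/L it was -0.17 (limma adjusted p = 0.43). Of 6 genes that mark intestinal epithelium, Alpi, Cdx1, Cdx2, Lct and Muc2 were below 0.5 RPKM in all 24 libraries. The remaining one, Fabp2, carried the summed level of 8.97 to 18.9 RPKM in controls, 12.5 to 19.7 at 1 g/L, 9.8 to 18.9 at 2 g/L and 9.43 to 15.7 at 3.5 g/L, and was not called at any dose against control. Exons of Apoa4 overlap those of Gm10680 and Gm47528, and exons of Apoa5 those of Gm47544, none of them in the table. It is not known from the labels whether reads were counted by strand, so reads of overlapping genes may be shared.

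Apoh, also known as beta-2-glycoprotein I, binds anionic phospholipids and circulates in part on lipoproteins. It lies on chromosome 11 (108343354 to 108414396), where its exons overlap those of Prkca. Its means were 822.0 RPKM ± 43.1, 714.0 ± 45.7, 514.3 ± 54.1 and 577.1 ± 38.2 over the 4 doses (SD, n = 6 each). The libraries at 2 g/L, from 444.6 to 599.2 RPKM, and those at 3.5 g/L, from 521.7 to 638.5, were all below the controls, from 752.9 to 876.8. The log2 fold of Apoh was -0.20 at 1 g/L (SE 0.07, limma adjusted p = 0.0647), -0.68 at 2 g/L (SE 0.07, adjusted p = 9.29e-08) and -0.51 at 3.5 g/L (SE 0.07, adjusted p = 2.52e-06). The difference at 1 g/L passed the threshold under median-ratio scaling (-0.28, adjusted p = 0.0124) and without a trend in the variance (adjusted p = 0.0374), and was -0.10 under quantile normalization (adjusted p = 0.569).

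Ratios of neighbouring genes within a library do not depend on how the library was scaled. For 5 pairs fixed from the clusters, the difference in mean log2 ratio from control was tested at each dose with a two-sided exact permutation test of 6 against 6 libraries, adjusted over 15 tests. The smallest p this test can give is 0.00216. On chromosome 7, Apoc2 relative to Apoe was higher than in controls by 0.83, 1.36 and 1.00 on the log2 scale at 1, 2 and 3.5 g/L, with each dose apart from controls and an exact adjusted p of 0.00464 each. Apoc1 relative to Apoe was higher by 0.30 (exact adjusted p = 0.00812), 0.47 and 0.475 (exact adjusted p = 0.00464 both). The 3 genes of this cluster thus did not keep their control proportions in the libraries of any dose of DCA. The ratio tests of both clusters had no term for the title tag, which differs from that of all controls at 2 and 3.5 g/L.

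On chromosome 9, Apoa4 relative to Apoa1 did not differ at 1 g/L beyond the spread (exact adjusted p = 1.0) and was lower at the upper doses, with differences of -0.88 at 2 g/L and -0.77 at 3.5 g/L on the log2 scale (exact adjusted p = 0.00464 both). Apoa5 relative to Apoa1 passed at no dose, with differences of -0.23 at 2 g/L (exact adjusted p = 0.366) and -0.01 at 3.5 g/L (exact adjusted p = 1.0). Its SD over libraries was 0.43 at 2 g/L and 0.14 in controls. Apoc3 relative to Apoa1 was higher by 0.32 at 3.5 g/L (exact adjusted p = 0.0216), although both genes were lower than in controls, and did not pass at 1 or 2 g/L.

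**Figure D4:**
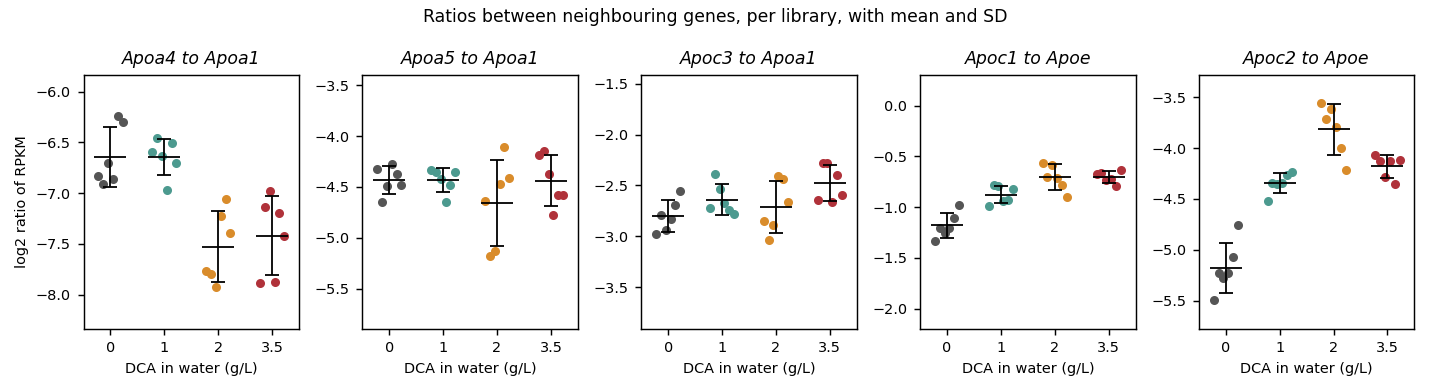
Log2 ratios of RPKM (vertical axes, each spanning the same range of log2 units) between neighbouring genes in each library, by DCA dose in g/L (horizontal axes). Points are libraries and black bars the mean and SD of 6. Apoc2 relative to Apoe lies above controls at all 3 doses, by 1.36 at 2 g/L, and Apoa4 relative to Apoa1 lies below controls at 2 and 3.5 g/L.

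The 6 libraries at 2 g/L were spread unevenly for several members. For Apoe, libraries 73 to 78 read 2743, 2821, 3027, 3063, 3542 and 3659 RPKM, for Apoa5 106.8, 82.8, 84.3, 109.3, 161.3 and 140.9, and for Apoc3 370.6, 366.3, 400.0, 458.3, 513.2 and 475.3. Libraries 77 and 78 were the 2 highest in all 3 genes, as they were for Apoa4 and Apoh. Ehhadh, a peroxisomal enzyme named here after its values were seen, read 1262, 1409, 1559, 787.4, 673.0 and 165.4 RPKM in the same libraries, lowest in 77 and 78. Its part in the spread of the members was not tested. Apob, Apoa2 and Apoc2 did not share that order, with Apob lowest in library 77 and Apoc2 lowest in library 78.

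Deviations from dose means over all 24 libraries showed which members varied together. Of 45 pairs, 33 had a positive Pearson r, with a median of 0.277. The highest values were 0.76 for Apoc3 with Apoe and 0.754 for Apoc3 with Apoc1, and the lowest was -0.417 for Apob with Apoe. Taken dose by dose, Apoc3 with Apoe had r = -0.06 in controls and 0.89, 0.91 and 0.95 at 1, 2 and 3.5 g/L. For Apoc3 with Apoc1 these were 0.83, 0.96, 0.68 and 0.65. These r values are descriptions, since the genes share libraries and their scaling. Apoa1 had little or negative relation with the other members, the highest being 0.21 with Apoe.

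**Figure D5:**
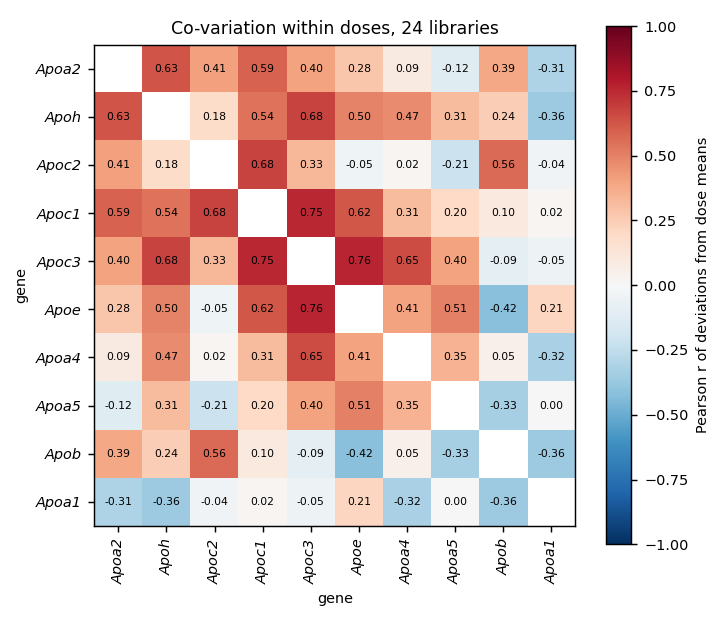
Pearson r (colour and printed value) between each pair of the 10 genes (both axes), computed over 24 libraries from deviations of log2(RPKM + 1) from the dose means. Apoc1, Apoc3, Apoe and Apoh have values from 0.50 (Apoe and Apoh) to 0.76 (Apoc3 and Apoe) with each other. Apob and Apoe have the lowest value of -0.42.

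Outside the 10 genes, the pattern most like that of Apoc2 over 24 libraries was that of Atp5k, a subunit of ATP synthase (r = 0.95), Adss, an enzyme of purine synthesis (r = 0.947), and Grpel1, a mitochondrial co-chaperone (r = 0.94). Mean Atp5k was 112.0 RPKM in controls and 144.0, 201.0 and 190.0 at 1, 2 and 3.5 g/L. For Apoa4 the closest were C8g, of the complement system (r = 0.948), Il1rap, a subunit of the interleukin-1 receptor (r = 0.948), and C2, a complement protease (r = 0.938). Mean C2 was 34.9 RPKM in controls and 27.3, 16.2 and 13.7 at the 3 doses. Shared dose differences make up much of such an r. For deviations from dose means the closest to Apoc2 were Eif3l (0.875), Med23 (0.873) and Ndufa3 (0.869), and the closest to Apoa4 were Gls2 (0.729), Fam210b (0.717) and Loxl4 (0.693), with no gene in common with the first lists.

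Other genes named after apolipoproteins were counted in the same way. Of 19 in the table, 10 were tested, and 1 was higher and 0 lower at 1 g/L, 2 higher and 1 lower at 2 g/L, and 2 higher and 4 lower at 3.5 g/L. Over all tested genes the shares were 8.35% higher and 3.03% lower at 1 g/L, 41.9% and 10% at 2 g/L, and 38.6% and 12.9% at 3.5 g/L, so the count lower at 2 g/L was at the background. Their median log2 fold was 0.00, -0.01 and -0.14 at the 3 doses. Under median-ratio scaling 2 were higher and 3 lower at 2 g/L, where 1306 of all 6540 genes were higher and 1453 lower. At 3.5 g/L that scaling gave 2 higher and 6 lower, against 1435 and 1631 of all genes. With the title tag in the model none was called at 1 or 2 g/L. Of all genes, 38 were then higher and 54 lower at 1 g/L, and 624 and 240 at 2 g/L. Those that rose at the deposited scaling were Apoo and Apool, whose products sit in the inner membrane of mitochondria, with log2 folds at 3.5 g/L of 0.69 and 0.48. The genes that fell at 3.5 g/L were Apof (-0.45), Apol9a (-0.89), Apol9b (-0.74) and Apon (-0.24). Apol9a and Apol9b are near-identical copies, and the counting could split or share their reads.

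Partners of the apolipoproteins act in particle assembly, remodelling and uptake. Of 22 genes, all tested, 1 was higher and 3 lower at 1 g/L, 7 higher and 5 lower at 2 g/L, and 11 higher and 5 lower at 3.5 g/L, with a median log2 fold of -0.09, 0.13 and 0.21. Of all tested genes, 8.35%, 41.9% and 38.6% were higher at the 3 doses, and 3.03%, 10% and 12.9% lower. The count higher at 2 g/L was no larger than that background. Under median-ratio scaling 4 were higher and 9 lower at 2 g/L, where 1306 of all 6540 genes were higher and 1453 lower. At 3.5 g/L that scaling gave 9 higher and 8 lower, against 1435 and 1631 of all genes. With the title tag in the model 3 were higher and 1 was lower at 2 g/L, against 624 and 240 of all genes. Mttp, which loads lipid onto the Apob protein, ran opposite to Apob, with log2 folds of 0.69 at 2 g/L (SE 0.10, limma adjusted p = 4.56e-06) and 0.71 at 3.5 g/L (SE 0.10, adjusted p = 2.06e-06). Mean Mttp was 52.5 RPKM ± 5.58 in controls and 86.7 ± 10.6 at 3.5 g/L (SD, n = 6 each). Abca1, which passes cholesterol to the Apoa1 protein, was higher at all 3 doses, with log2 folds of 0.23, 0.54 and 0.53 (limma adjusted p = 0.013, 1.32e-07 and 7.84e-08). The call for Abca1 at 1 g/L was lost under median-ratio scaling (adjusted p = 0.103) and with the title tag in the model (adjusted p = 0.155).

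Abcg5, part of the transporter that moves sterols into bile, was higher at 2 and 3.5 g/L by log2 folds of 0.89 and 1.01, and Lipg, a lipase that acts on HDL, by 0.63 and 1.07. Lrp1, a receptor for remnants that carry Apoe, was lower at all 3 doses, at -0.41, -0.21 and -0.40 (limma adjusted p = 0.000253, 0.00629 and 8.7e-06). With the title tag in the model, Lipg (0.43, limma adjusted p = 0.329) and Lrp1 (-0.22, adjusted p = 0.224) were not called at 2 g/L.

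Of 19 transcription factors known to act on apolipoprotein genes, 18 were tested. At 1 g/L 4 were higher and 2 lower, at 2 g/L 7 were higher and 4 lower, and at 3.5 g/L 9 were higher and 1 was lower, with a median log2 fold of 0.09, 0.03 and 0.21. Of all tested genes, 8.35%, 41.9% and 38.6% were higher at the 3 doses, and 3.03%, 10% and 12.9% lower. The count higher at 2 g/L was near that background. Under median-ratio scaling 4 were higher and 5 lower at 2 g/L, where 1306 of all 6540 genes were higher and 1453 lower. At 3.5 g/L that scaling gave 7 higher and 2 lower, against 1435 and 1631 of all genes. With the title tag in the model 2 were higher and 1 was lower at 2 g/L, against 624 and 240 of all genes. Nr1d1, the clock repressor Rev-erb alpha, had a mean of 1.55 RPKM ± 0.39 in controls and 18.3 ± 4.53 at 3.5 g/L (SD, n = 6 each), with log2 folds of 0.99, 2.33 and 2.90. Nr1h4, the bile acid receptor FXR, was higher at all 3 doses, at 0.40, 0.61 and 0.96, and so was Nr2f2, at 0.25, 0.32 and 0.64. Creb3l3, a membrane-bound factor of the liver, was higher at 2 and 3.5 g/L, at 0.41 and 0.64. Hnf4a, a main regulator of hepatocyte genes, was higher at 3.5 g/L by 0.44, and Foxo1, a target of insulin signalling, was lower at all 3 doses, at -0.40, -0.60 and -0.24. With the title tag in the model Nr1h4, Nr2f2 and Creb3l3 were not called at 2 g/L (limma adjusted p = 0.075, 0.213 and 0.119), nor Nr1h4 and Nr2f2 at 1 g/L (0.182 and 0.212), and under median-ratio scaling Nr2f2 was not called at 1 or 2 g/L (0.112 and 0.0558). RNA levels of these factors say nothing of their activity, which was not measured.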

How the data were processed

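RNA of 24 liver samples, 6 per dose, was made into stranded libraries after removal of ribosomal RNA, per the labels' protocols. The authors deposited RPKM per gene and library in 1 table. CASAVA, STAR 2.4, Partek and mm10 appear in the submitters' processing notes without their roles. Gene annotation and use of strand are not given in the sources used here. A value of 0.0001 in the authors' RPKM table stands for 0. In the table used here, the line for the last symbol, which is incomplete, and 13 lines whose symbols had become dates were dropped, and later symbols were not analysed here. All 24 columns were used. Low RPKM values gave the depth estimate, of which 93.1% (15289 of 16427) were whole multiples within 0.02 times their number of reads.

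Log2(RPKM + 1) was fitted with limma 3.58.1 in R 4.3.3, with 1 mean per dose over all 24 libraries and a variance trend, on 6540 genes that reached 0.5 RPKM in 6 or more of the libraries. Tests were two-sided, adjusted by Benjamini-Hochberg at 0.05. A log2 fold on this scale understates changes of low genes. Ratios were tested by exact permutation with Python 3.11.15. Both tests were tested on simulated data. Alternatives were a pseudocount of 0.1, no filter, a filter at 1 RPKM, median-ratio and quantile scaling, the title tag as a term, single tags, only the groups compared, no trend, and each library left out.

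All 10 members are named. Of each further list, up to 6 genes with the smallest adjusted p were named, and the 3 genes most alike to the members with the steepest positive and negative slope. Of these, 1 gene is not reported here. The members and lists were chosen with earlier results of these data known. Marker lists, of 8 cell types, are given with their counts in the report. Replicate numbers are not shared between doses.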

Additional observations from a re-analysis of the deposited data

Results flagged for a closer look

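Within each dose, the highest and lowest library of each gene were compared with the rest by Dixon's test, over 40 groups of 6 libraries. Chance flags about 1 in 20 groups, and 1 was flagged. At 3.5 g/L, Apoa5 read 135.8 RPKM in library 97, above the other 5 libraries. That library was still below the lowest control, at 140.9 RPKM, and Apoa5 stayed called lower at 3.5 g/L without it.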

How the results depend on the processing

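No paired analysis was possible because the doses share no replicate numbers. Against control at 3.5 g/L, the 3 higher and 6 lower members were called in each of 12 fits that left out 1 library. At 1 g/L, 2 members were lower under median-ratio scaling and without the variance trend, 2 were higher under quantile normalization (where Apoe, not Apob, was the lower member), and 0 were lower among L1 libraries. Genes called there numbered 92 with the title tag as a term, 50 among L1 libraries and 456 to 971 with 1 library left out, where 456, 476 and 484 came without control library 3 and libraries 52 and 54. Without a filter, 2 g/L had 1 member higher and 4 lower, and the tag term 1 higher and 3 lower with 864 genes called. For 2 against 1 g/L, the tag term left 2 members lower and 837 genes, L2 libraries alone 2 lower and 589 genes, and no trend gave 2 higher. For 3.5 against 2 g/L, no filter and fitting only these groups left 0 members in either direction, the latter with 446 genes called. Quantile normalization left 0 lower and 1 higher, Apoc1 in place of Apoa2, and leaving out 1 library gave 0 to 1 lower (0 without library 75 or 98) and 1 to 2 higher (2 without library 78). The cause was not tested.

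Among the apolipoprotein members and the ratios of neighbours, signs turned only for values that had not been called. Outside these, the transcription factor Nr1h2 was called higher at 3.5 g/L as deposited (log2 fold 0.181). Under quantile normalization its log2 fold was -0.005 (limma adjusted p = 0.939). The log2 fold of Apoa4 at 1 g/L ranged from -0.112 to 0.026 with 1 library left out. That of Apoc1 was -0.091 at 1 g/L under quantile normalization. At 2 g/L Apoc1 was -0.008 under median-ratio scaling and -0.069 under quantile normalization. From 1 to 2 g/L Apoc1 was -0.092 under median-ratio scaling and -0.027 to 0.052 with 1 library left out. Apoa5 from 2 to 3.5 g/L ranged from -0.159 to 0.031. The ratio of Apoa4 to Apoa1 at 1 g/L ranged from -0.054 to 0.079, that of Apoa5 to Apoa1 from -0.043 to 0.044 at 1 g/L and from -0.068 to 0.059 at 3.5 g/L. With about 23600000 to 28100000 reads per library by the approximate estimate, depth limits these abundant genes little. The spread between libraries sets the precision.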
